A study of Homo sapiens with 6 samples.

Results

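Nuclear receptors are transcription factors of 1 gene family, most of them switched by small fat-soluble ligands. The 42 genes described here are the steroid, thyroid hormone, vitamin D, lipid-sensing, circadian and orphan receptors of this family, with the retinoic acid receptors left out. They were chosen by gene symbol and not by any measured value, though with earlier results of these data known. The probe annotation named 37 of them, through 77 probes, among 18665 genes with a probe. mRNA was measured in neural stem cell (NSC) cultures and in embryonic stem cell (ESC) cultures of the established human lines H1, HSF1 and HSF6, on Illumina Human-6 beadchips. Each line gave 1 NSC and 1 ESC array, so that 3 NSC were compared with 3 ESC arrays. The H1 cultures came from Rutgers, where no feeder cells were used, and those of both HSF lines from UCLA, so line and site cannot be told apart. NSC were induced from ESC without added retinoic acid and kept in bFGF, as the study's methods describe for the Rutgers cultures, and no drug or genetic change was applied. By the same methods, the H1 cells carried duplications on chromosomes 12 and 17, where NR2C1, VDR and NR4A1 (12) and THRA and NR1D1 (17) lie. Each array is a single culture of its line.

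A nuclear receptor binds DNA through a domain with zinc fingers, which reads a 6-base half-site of the type AGGTCA, and binds its ligand through a second domain that exchanges corepressors for coactivators. Steroid receptors wait in a chaperone complex and act as homodimers. Thyroid hormone, vitamin D, oxysterol and fatty acid receptors pair with a retinoid X receptor (RXR), and several orphan receptors, for which no ligand was known when they were named, bind as monomers or homodimers. In early embryos and in the nervous system, members of the family are known as regulators of pluripotency, of the regional pattern of the brain and of the self-renewal of neural stem cells.

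To show the DNA in front of the genes at the center of the results, the 250 bases before the annotated start are printed for NR2F1, which had the largest NSC increase, NR5A2, which had the largest decrease, and THRA, whose NSC arrays differed most among themselves of the tested receptors. The sequences are from RefSeq on GRCh38.p14, all on the plus strand, read 5′ to 3′, and capitals mark half-sites (AGGTCA, its variant AGTTCA, the form GGGTCA and the form GGTTCA, sought on both strands).
NR2F1, chr5:93582972-93583221: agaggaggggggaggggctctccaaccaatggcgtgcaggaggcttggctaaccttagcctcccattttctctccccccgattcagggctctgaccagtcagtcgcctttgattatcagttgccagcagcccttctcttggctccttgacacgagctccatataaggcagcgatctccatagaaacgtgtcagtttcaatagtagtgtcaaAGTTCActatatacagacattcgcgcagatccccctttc
NR5A2, chr1:200027460-200027709: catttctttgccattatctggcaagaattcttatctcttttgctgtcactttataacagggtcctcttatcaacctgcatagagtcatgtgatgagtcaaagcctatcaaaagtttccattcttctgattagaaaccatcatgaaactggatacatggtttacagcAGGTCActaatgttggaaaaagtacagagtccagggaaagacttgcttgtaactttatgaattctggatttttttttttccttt
THRA, chr17:40062715-40062964: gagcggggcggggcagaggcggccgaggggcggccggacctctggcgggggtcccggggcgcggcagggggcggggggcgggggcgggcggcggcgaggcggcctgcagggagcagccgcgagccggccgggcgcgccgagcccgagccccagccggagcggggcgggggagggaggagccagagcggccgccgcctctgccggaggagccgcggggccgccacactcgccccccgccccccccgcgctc
The NR2F1 window held 1 half-site, AGTTCA, beginning 39 bases before the start, and a CCAAT motif beginning 225 bases before it. The NR5A2 window held 1 half-site, AGGTCA, beginning 84 bases before the start, had a GC content of 36.0% and no CpG. The THRA window held no half-site, had a GC content of 87.2% and 39 CpG. For genes with several annotated starts, the first listed window is used. Of the 42 members, 37 had a window and 12 of these (32.4%) held a half-site, against 9277 of all 27303 promoter windows of this length (34.0%). CCAAT stood in 40.5% of the members' windows and in 33.0% of all windows, and TATAAA in 8.11% and 11.1%. These matches describe letters only, and binding was not measured.

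Before the receptors, the stage labels were checked against marker genes. The deposited values are intensities on a linear scale, brought by the authors to 1 common distribution, in which background lay at a signal of 127, and a signal above 146 (the value that 5% of background signals are estimated to exceed) is called above the limit. POU5F1, which defines pluripotent cells, lay between 132 and 137 in NSC and between 9876 and 11920 in ESC. The signal over background summed over 10 pluripotent markers was 416 to 1117 in NSC and 37038 to 54086 in ESC. The NSC arrays were not alike. Over 9 neural stem cell markers the sum was 4886, 19019 and 14267 in NSC of H1, HSF1 and HSF6, against 5340 to 6621 in ESC. PAX6 (138), HES5 (135) and MSI1 (142) were below the limit in H1 NSC, and SOX1 was below it on all 6 arrays. SOX9 was highest in H1 NSC (2907, against 2330 in HSF1 NSC and 1608 in HSF6 NSC). Over 10 markers of mesenchyme and fibroblasts, all 10 above the limit on every NSC array, the sum was 165854, 39189 and 70339 in NSC in the same order, against 2794 to 5745 in ESC. Over 8 neuron markers it was 3469, 16630 and 20190 in NSC, against 2542 to 2953 in ESC. Over 7 endoderm markers, none above the limit in NSC and 5 to 6 above it in ESC, it was 47.6 to 68.3 in NSC and 1082 to 1950 in ESC. Over 6 neural crest markers, 3 above the limit on each NSC array and 2 to 4 in ESC, it was 5687, 1835 and 1792 in NSC. In ESC it was 79.7 to 443. Most of the NSC sum came from SNAI2 (5234, 1259 and 1223) and TFAP2A (667, 780 and 717). SOX10 and FOXD3 were below the limit on every NSC array and above it on 1 and 2 ESC arrays. TFAP2B passed it in HSF1 and HSF6 NSC only, and NGFR in H1 NSC only (146). The pluripotent, mesenchyme, neuron, endoderm and neural crest sums moved with stage in all 3 lines. The neural stem cell sum was higher in NSC than in ESC for HSF1 and HSF6, and lower for H1 (4886 against 6621). H1 NSC stands apart in the neural stem cell, mesenchyme, neuron and neural crest lists. In such bulk RNA, fewer cells of a type and less RNA per cell cannot be told apart, and the part of other cell types in the differences below was not tested.

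Of the 37 receptors with a probe, 18 were tested, because a probe lay above the limit on all 3 arrays of a stage. A gene can pass this filter through the stage in which it is high, so the tested genes are not a neutral subset. A gene is given by its brightest tested probe. In the test of limma across all genes, 4 receptors were called higher in NSC (NR2F1, THRA, RXRA and RXRB) and 2 lower (NR5A2 and NR2F6) (adjusted p under 0.05 by Benjamini-Hochberg, and a difference of 1.5-fold or more). Over all 10974 tested genes, 11.4% were called higher and 12.4% lower in NSC. All 6 receptors differed the same way in each of the 3 lines, which is no separate support, because they were called on these same arrays. The median NSC minus ESC difference was 0.38 on the log2 scale over the 18 receptors and -0.06 over all tested genes, and the median size of the difference was 0.69 for the receptors and 0.65 for all genes. A further 11 receptors were above the limit on some arrays without reaching the test, 8 were below it on all 6 arrays, and NR0B1, NR1H2, NR1H4, NR1I2 and HNF4A had no probe in the annotation used here. Levels are not compared between genes, because each probe has its own response.

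**Figure D1:**
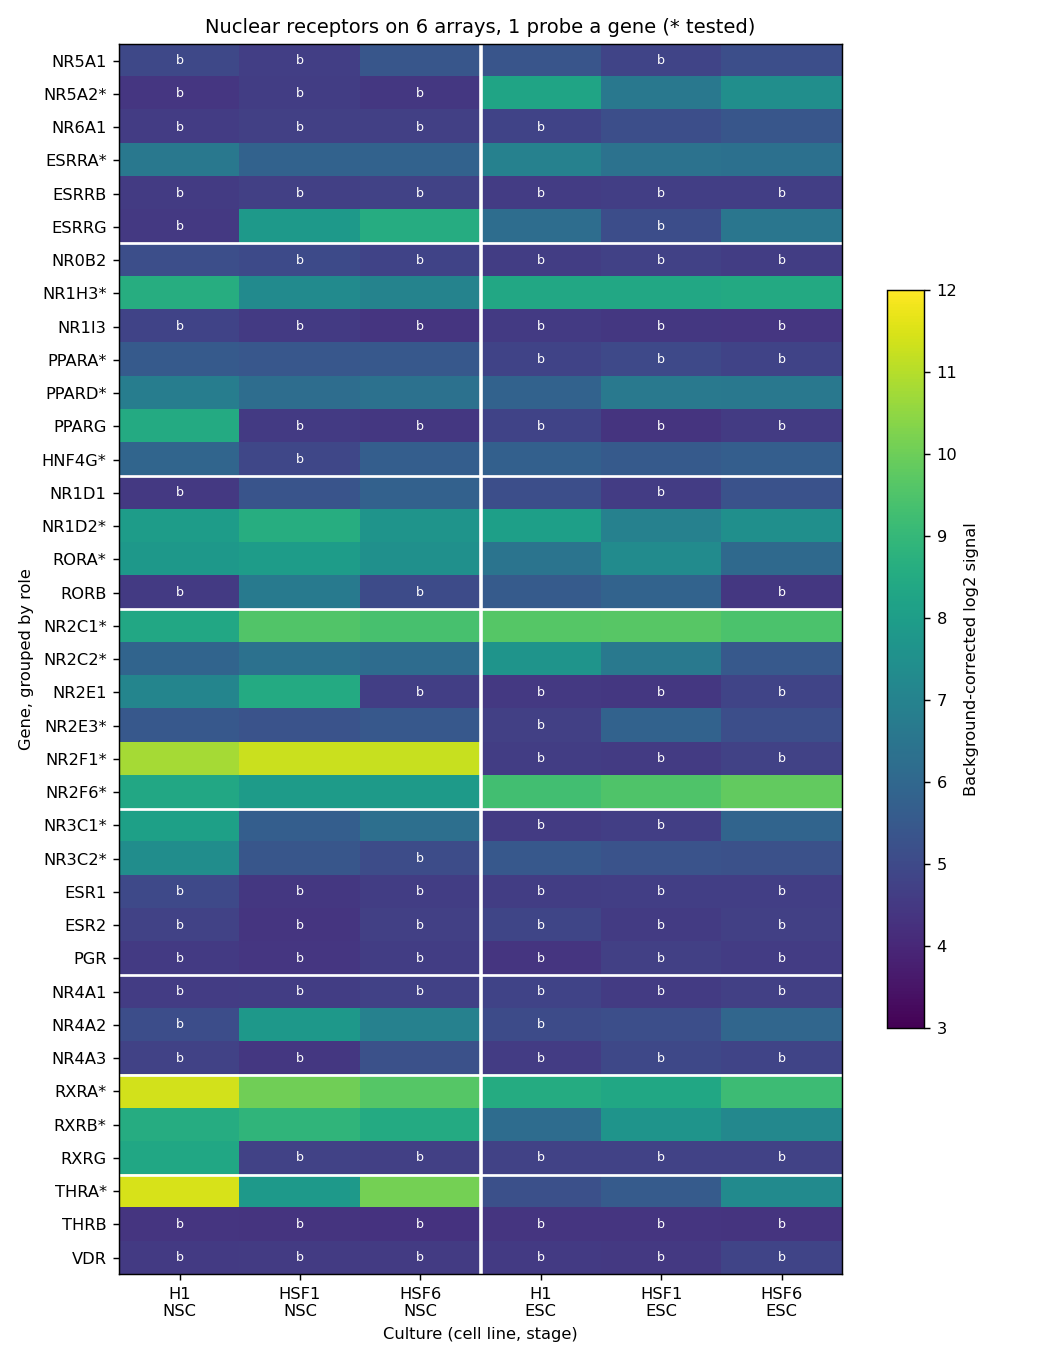
Background-corrected log2 signal (color) of the 37 receptors with a probe, 1 probe a gene, on 3 NSC arrays (left) and 3 ESC arrays (right), with rows grouped by role. The letter b marks a signal at or below the limit of 146, and an asterisk marks the 18 tested genes. NR2F1 is bright on the NSC arrays only, and ESR1, ESR2, PGR, THRB, VDR, NR4A1, NR1I3 and ESRRB carry a b on all 6 arrays.

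Among the COUP-TF, TLX and testicular orphan receptors, 5 of 6 were tested, 1 was called higher and 1 lower in NSC. Here and below, the values of a stage are given in the order H1, HSF1, HSF6. NR2F1 (COUP-TFI), a regulator of cortical area patterning and of neural crest development, had signals of 1874, 2574 and 2521 in NSC and of 128, 124 and 133 in ESC. Every NSC array was far above the limit and every ESC array below it. On the corrected log2 scale NR2F1 averaged 11.09 ± 0.27 in NSC and 4.66 ± 0.10 in ESC (SD, n = 3 each), a difference of 6.43 (SE 0.25, limma adjusted p = 4.4e-05). Since the ESC arrays give only a bound, NR2F1 was at least 15.8-fold higher in NSC on the deposited signals as they stand, and at least 61.8-fold higher on the background-corrected scale. Such a bound depends on the background correction, as does the size of a fitted difference against a stage below or near the limit. With an offset of 50 in place of 16 the fitted difference of NR2F1 was 5.23, and without correction 4.17. Its call held under all 16 alternative settings in which it was tested.

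NR2F6 (EAR2), an orphan receptor of the same subfamily, went the other way. Its signals were 451, 358 and 353 in NSC and 725, 854 and 1038 in ESC, above the limit everywhere and without overlap of the stages. NR2F6 averaged 8.09 ± 0.27 in NSC and 9.55 ± 0.30 in ESC (SD, n = 3 each, log2), so it fell by 1.46 (SE 0.28, limma adjusted p = 0.0128), and ESC stood 2.75-fold above NSC. Without HSF6 NSC its adjusted p was 0.0552.

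NR2E1 (TLX), which in mice keeps neural stem cells dividing, did not reach the test. The brighter of its 2 probes gave 250, 475 and 129 in NSC and 119, 117 and 136 in ESC. H1 and HSF1 NSC were above the limit, and HSF6 NSC lay within the range of ESC. Its other probe gave 154, 210 and 143 in NSC and 142, 149 and 137 in ESC.

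NR2C1 and NR2C2 (TR2 and TR4) are widely expressed orphan receptors that bind direct repeats of the half-site. The brightest NR2C1 probe gave 448, 856 and 779 in NSC and 904, 928 and 816 in ESC, a difference of -0.48 (95% interval -1.29 to 0.32, limma adjusted p = 0.337). The other 3 tested NR2C1 probes had lower NSC values in all 3 lines without overlap of the stages, with differences of -0.88, -0.61 and -0.38 and adjusted p-values of 0.0613, 0.135 and 0.273, and none was called. NR2C2 had 172, 193 and 185 in NSC and 313, 211 and 157 in ESC, with overlap and a difference of -0.45 (adjusted p = 0.552). NR2E3, a receptor of photoreceptor cells, lay near the limit, at 156, 150 and 156 in NSC and at 131, 169 and 147 in ESC, with H1 ESC below it (difference 0.18, adjusted p = 0.706).

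**Figure D2:**
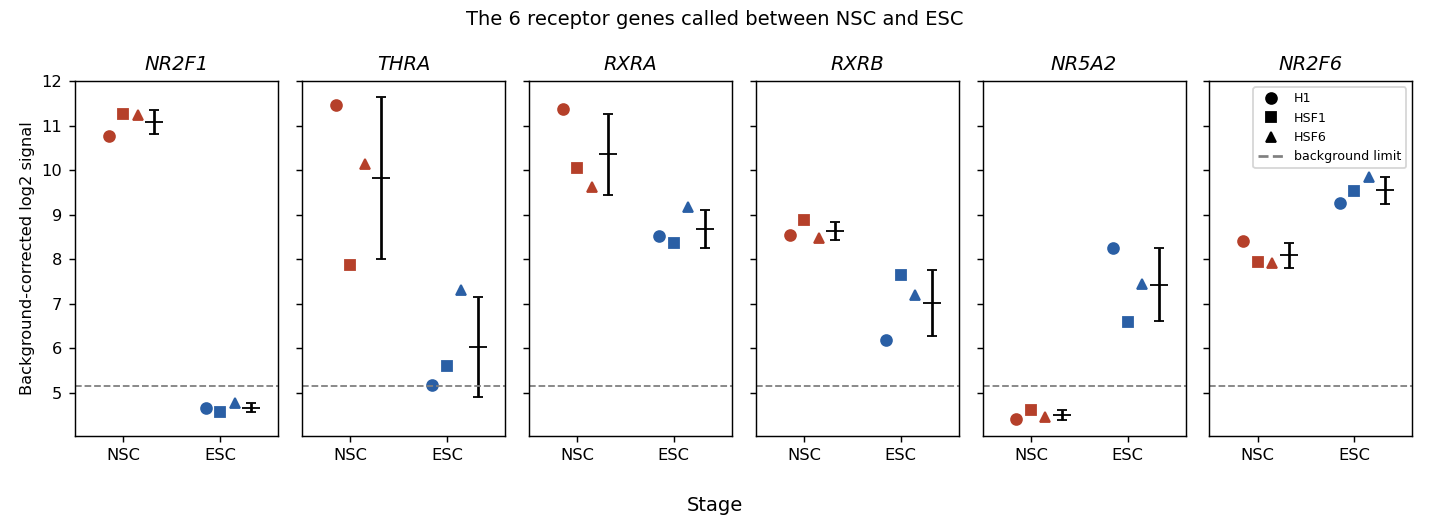
Background-corrected log2 signal of the 6 called receptors on each NSC array (left, red) and ESC array (right, blue). Marker shapes give the cell line, black bars the mean ± SD of 3 arrays, and the dashed line the background limit. NR2F1 in ESC and NR5A2 in NSC lie below the limit on all 3 arrays, and the NSC values of THRA are the widest spread.

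All 3 RXR genes, the shared partners of the thyroid hormone, vitamin D, oxysterol and fatty acid receptors, had probes. RXRA gave 2777, 1178 and 906 in NSC and 479, 441 and 691 in ESC, and every NSC value exceeded every ESC value. RXRA averaged 10.36 ± 0.91 in NSC and 8.69 ± 0.43 in ESC (SD, n = 3 each, log2), 3.18-fold higher in NSC (difference 1.67, SE 0.48, limma adjusted p = 0.0449). The call lies at the edge of the threshold. It was lost with the cell line as a block (adjusted p = 0.0587), and when any single array other than H1 NSC was left out (0.0506 to 0.126). Without H1 NSC the difference was 1.16 (adjusted p = 0.0485).

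RXRB gave 488, 582 and 471 in NSC and 185, 312 and 259 in ESC, again without overlap. RXRB averaged 8.64 ± 0.21 in NSC and 7.01 ± 0.75 in ESC (SD, n = 3 each, log2), 3.09-fold higher in NSC (difference 1.63, SE 0.39, limma adjusted p = 0.0267). Its adjusted p was 0.0609 without HSF6 ESC, 0.0790 without HSF1 NSC and 0.0713 without HSF6 NSC. RXRG, the RXR of muscle and of parts of the brain, had 437, 133 and 130 in NSC and 133, 133 and 134 in ESC through its brightest probe. H1 NSC alone was above the limit, and the other 2 RXRG probes were below it on all 6 arrays.

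Among the thyroid hormone and vitamin D receptors, THRA alone was tested. THRA encodes thyroid hormone receptor alpha, the main thyroid hormone receptor of the brain, and, by splicing, a form that does not bind the hormone. The THRA probe that was called gave 2947, 345 and 1237 in NSC and 147, 160 and 271 in ESC. Every NSC array was above every ESC array, but the NSC arrays differed greatly among themselves. THRA averaged 9.82 ± 1.82 in NSC and 6.03 ± 1.13 in ESC (SD, n = 3 each, log2), 13.9-fold higher in NSC (difference 3.79, SE 0.93, limma adjusted p = 0.0282). The 13.9-fold size depended on the background correction, and H1 ESC and HSF1 ESC lay just above the limit. With an offset of 50 the THRA difference was 3.21, and without correction it was 2.54. With the correction as reported, the difference was 2.97 without H1 NSC (adjusted p = 0.0419) and 2.55 without both H1 arrays (0.0869). The adjusted p was 0.0900 without HSF1 ESC, 0.0885 without H1 ESC, 0.0832 without HSF6 NSC and 0.0668 without background correction.

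The other 2 THRA probes did not show this difference in size. One gave 135, 154 and 175 in NSC and 119, 123 and 113 in ESC, above the limit in HSF1 and HSF6 NSC only. The other gave 124, 126 and 129 in NSC and 137, 121 and 147 in ESC. The annotation places the called probe on the transcript of the form that does not bind hormone and these 2 on that of the hormone-binding form, and whether the probes separate the forms was not tested. THRA lies on chromosome 17, where the H1 cells carry a duplication. Over 618 genes of chromosome 17, the median of H1 minus the HSF lines, less the autosomal median, was -0.04 in NSC and 0.25 in ESC on the log2 scale. The part of the duplication in the THRA values was not tested. THRB, the second thyroid hormone receptor, gave 103 to 110 in NSC and 107 to 112 in ESC. VDR, the vitamin D receptor, gave at most 124 in NSC and 136 in ESC over its 2 probes. Both were below the limit on all 6 arrays.

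**Figure D3:**
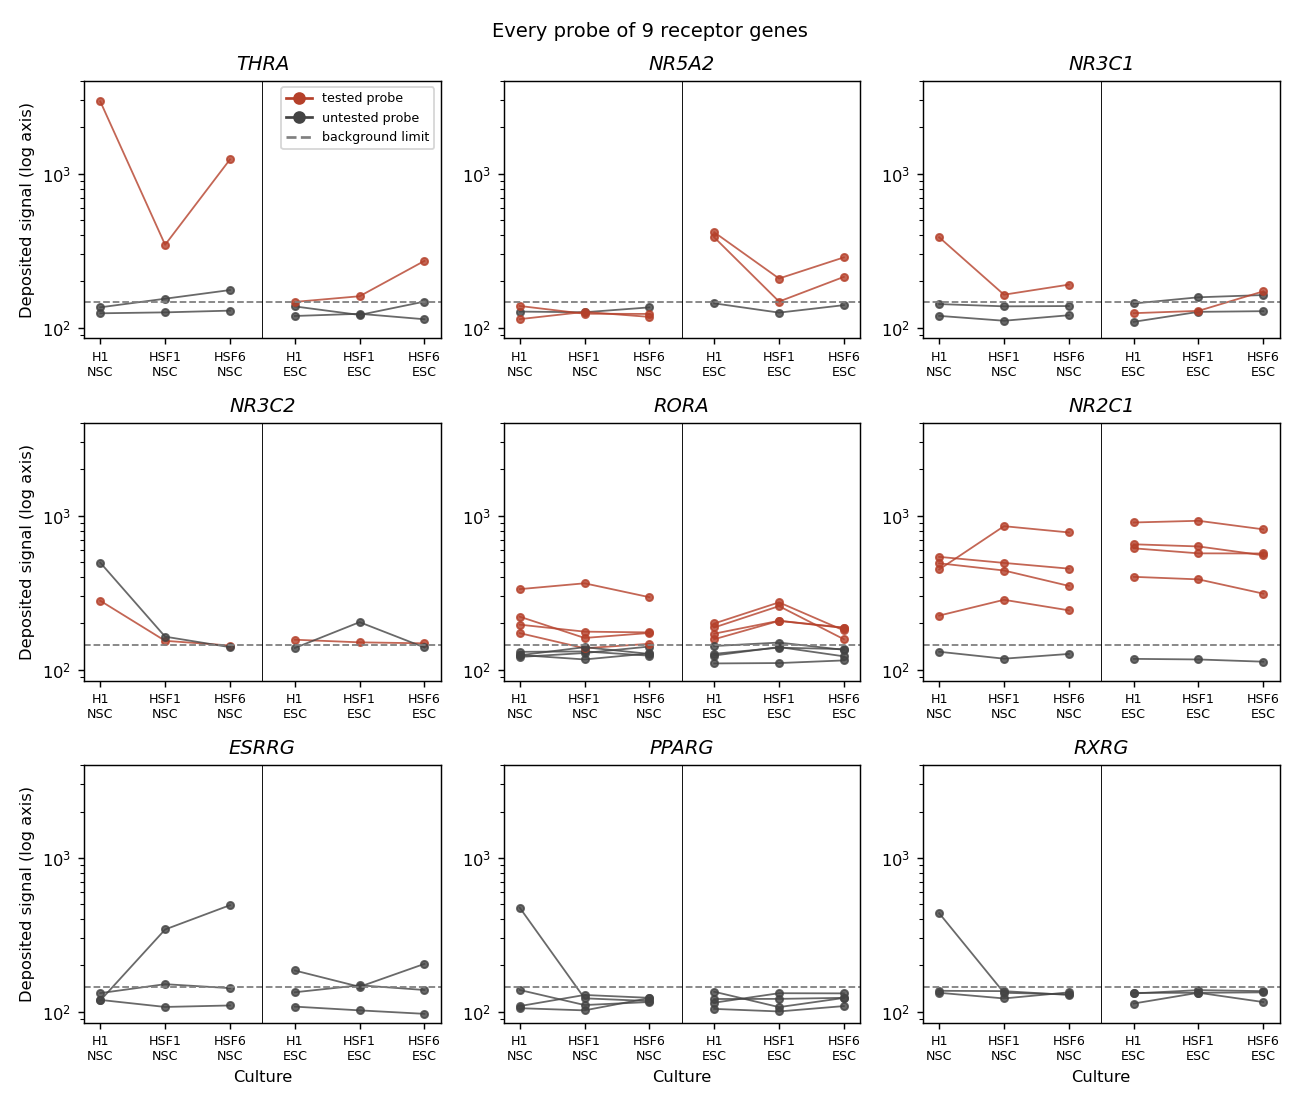
Deposited signal on a log axis for every probe of 9 receptor genes in NSC (left of each panel) and ESC (right), with the background limit dashed, tested probes red and untested probes gray. Lines join the arrays of a stage. One THRA probe reaches 2947 in H1 NSC while the other 2 stay at or below 175, and 1 probe each of PPARG and RXRG is above the limit in H1 NSC alone.

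Among the orphan receptors of the early embryo and of pluripotent cells, NR5A2 was called lower in NSC. NR5A2 (LRH-1) binds DNA as a monomer and, in mouse embryonic stem cells, activates the gene of Oct4. Its brightest probe gave 113, 126 and 117 in NSC and 416, 208 and 286 in ESC, below the limit on every NSC array and above it on every ESC array. NR5A2 averaged 4.50 ± 0.10 in NSC and 7.43 ± 0.83 in ESC (SD, n = 3 each, log2), a fitted difference of -2.93 (SE 0.41, limma adjusted p = 0.00522) against NSC values below the limit. The difference was -1.89 with an offset of 50 and -1.29 without background correction. NSC was lower than ESC by at least 2.002-fold on the deposited signals and by at least 4.88-fold on the corrected scale.

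A second NR5A2 probe gave 138, 123 and 123 in NSC and 386, 148 and 213 in ESC, with a difference of -1.99 and an adjusted p of 0.0661 (0.0434 with the cell line as a block). The third NR5A2 probe was below the limit on all 6 arrays, between 125 and 144. NR5A2, a receptor also known from endoderm, moved with the 7 endoderm markers, whose sums were 68.3, 53.0 and 47.6 in NSC and 1725, 1082 and 1950 in ESC. The part of such cells in this difference was not tested.

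ESRRB, which in mouse embryonic stem cells belongs to the pluripotency network, gave 123 to 134 in NSC and 126 to 130 in ESC, below the limit throughout. NR6A1 (GCNF), known in mice for silencing the Oct4 gene during differentiation, gave 125, 131 and 131 in NSC and 135, 146 and 154 in ESC through the brighter of its 2 probes, so that only HSF1 and HSF6 ESC passed the limit. NR5A1, the steroidogenic factor, gave 129 to 154 in NSC and 136 to 153 in ESC. ESRRA, a regulator of mitochondrial genes, was tested with 210, 169 and 168 in NSC and 237, 196 and 192 in ESC (difference -0.47, 95% interval -1.23 to 0.29, adjusted p = 0.320).

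ESRRG, an estrogen-related receptor of brain and heart, was not tested but split the NSC cultures. Its brightest probe gave 118, 343 and 492 in NSC and 185, 145 and 205 in ESC. HSF1 and HSF6 NSC had the highest signals of the 6 arrays and H1 NSC the lowest. The other 2 ESRRG probes lay between 107 and 151 in NSC and between 96.9 and 149 in ESC.

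Among the steroid receptors, ESR1 and ESR2 (estrogen receptors) and PGR (progesterone receptor) were below the limit on every array, between 112 and 141 in NSC and between 112 and 137 in ESC. NR3C1, the glucocorticoid receptor, had 1 tested probe with 386, 164 and 190 in NSC and 124, 128 and 172 in ESC. On this probe NSC was higher in each line, but HSF1 NSC lay under HSF6 ESC. The difference of 1.65 was not called (95% interval 0.12 to 3.18, adjusted p = 0.110). A second NR3C1 probe went the other way, with 142, 137 and 138 in NSC and 143, 157 and 163 in ESC. It was lower in NSC in each line and above the limit in HSF1 and HSF6 ESC only. The third NR3C1 probe was below the limit on all 6 arrays. NR3C2, the mineralocorticoid receptor, had a tested probe with 280, 154 and 144 in NSC and 157, 150 and 148 in ESC (difference 0.62, adjusted p = 0.459). Its untested probe gave 496, 164 and 140 in NSC and 138, 204 and 139 in ESC. H1 NSC was the highest array on both NR3C2 probes and on the tested NR3C1 probe.

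None of the 4 tested lipid sensors was called in limma, and PPARA had the lowest unadjusted p of them (0.0279). NR1H3 (LXR alpha), which responds to oxysterols, gave 501, 272 and 240 in NSC and 446, 449 and 462 in ESC. The HSF lines were lower in NSC and H1 was not, and the difference was -0.77 (SE 0.42, adjusted p = 0.220). Without H1 NSC it was -1.25 with an adjusted p of 0.0165, and without both H1 arrays -1.26 with 0.0238, which passes the threshold. PPARA, the fatty acid receptor of liver and muscle, lay just over the limit in NSC at 158, 154 and 156 and under it in ESC at 135, 141 and 134 (difference 0.61, adjusted p = 0.0898). Measured against the limit, NSC was at least 1.07-fold higher on the deposited signals and 1.26-fold on the corrected scale. PPARA was called in the methods' t-test (adjusted p = 0.0318) and without a detection filter (0.0333).

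PPARD, the broadly expressed fatty acid receptor, gave 223, 186 and 193 in NSC and 168, 212 and 209 in ESC (difference 0.10, adjusted p = 0.838). HNF4G gave 173, 139 and 164 in NSC and 166, 158 and 163 in ESC (difference -0.14, adjusted p = 0.771). PPARG, the receptor that drives fat cell differentiation, gave 474, 122 and 117 in NSC and 135, 107 and 123 in ESC through 1 probe, above the limit in H1 NSC alone. Its other 3 probes were below the limit on all 6 arrays. NR0B2 (SHP), which lacks a DNA-binding domain, reached 146 in H1 NSC and stayed between 126 and 131 in ESC. NR1I3 (CAR), a xenobiotic sensor of liver, was below the limit on every array.

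The circadian receptors are the repressors NR1D1 and NR1D2 (REV-ERB alpha and beta), which bind heme, and the activators RORA and RORB, which use the same DNA element. None of the 2 tested was called in limma. The brightest probe of RORA (unadjusted p = 0.0151) gave 334, 364 and 296 in NSC and 200, 274 and 180 in ESC, without overlap. The difference was 1.14 (SE 0.36), with an adjusted p of 0.0598, and of 0.0403 with the cell line as a block. The other 3 tested RORA probes did not go the same way, with differences of -0.11, 0.00 and -0.99 (adjusted p = 0.792, 0.997 and 0.170), and 4 of the 8 RORA probes were not tested.

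NR1D2 gave 361, 503 and 315 in NSC and 382, 237 and 290 in ESC (difference 0.57, adjusted p = 0.304), and its second probe differed by 0.19 (adjusted p = 0.701). NR1D1 was near the limit, at 119, 151 and 167 in NSC and 147, 125 and 149 in ESC. RORB gave 122, 214 and 143 in NSC and 159, 170 and 118 in ESC, with HSF1 NSC the highest array.

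The NR4A genes are immediate early genes whose products act without a known ligand. None reached the test. NR4A2 (NURR1), required for midbrain dopamine neurons in mice, gave 145, 336 and 236 in NSC and 143, 146 and 175 in ESC through 1 probe. HSF1 and HSF6 NSC were above every ESC array and H1 NSC was not. Its other probe gave 122, 201 and 172 in NSC and 142, 300 and 163 in ESC, with the highest value in HSF1 ESC. NR4A3 passed the limit once over 4 probes, at 148 in HSF6 NSC, and NR4A1 stayed between 116 and 132 in NSC and between 115 and 135 in ESC.

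**Figure D4:**
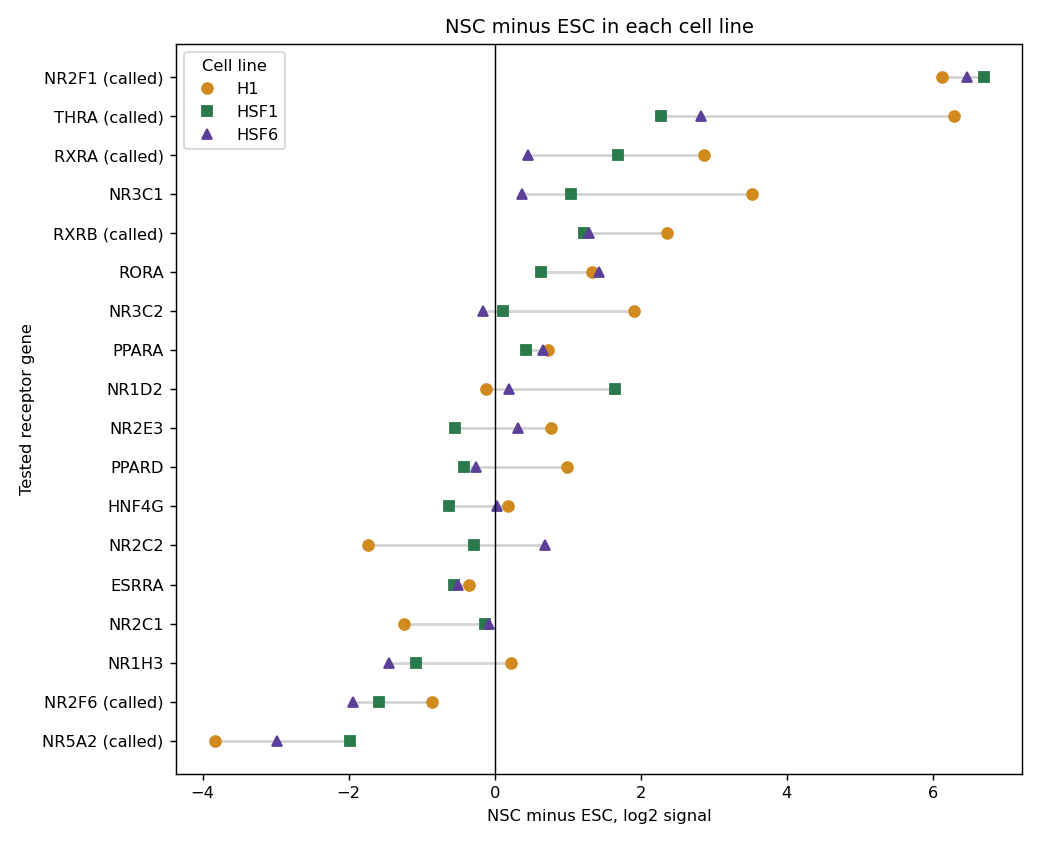
NSC minus ESC on the log2 scale in each line for the 18 tested receptors, ordered by their mean difference, 1 point a line. The 6 called genes, called on these same arrays, have all 3 lines on the same side of 0. H1 (circle) lies to the right of both HSF lines for THRA, RXRA, RXRB, NR3C1, NR3C2, NR1H3, NR2F6, NR2E3, ESRRA, PPARA, PPARD and HNF4G. It lies to the left of both for NR2F1, NR2C1, NR2C2, NR5A2 and NR1D2, and between them for RORA.

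To ask whether the change from ESC to NSC differed between H1 and the HSF lines, the interaction of stage with line group was fitted. With 1 H1 array a stage, its spread is that between HSF1 and HSF6. None of the 18 receptors was called in limma, and the lowest adjusted p was 0.146, for NR3C2. Over all genes, 0.137% had a higher and 0.164% a lower called NSC effect in H1. By sign the NSC effect was higher in H1 for 13 of 18 receptors (72.2%), against 51.7% of all tested genes. The NSC minus ESC difference of NR3C2 was 1.90 in H1, against 0.11 in HSF1 and -0.16 in HSF6. That of NR3C1 on its tested probe was 3.53 in H1, against 1.04 in HSF1 and 0.38 in HSF6, while its other 2 probes gave -0.04 and 0.12 in H1. That of THRA was 6.29 in H1, against 2.27 in HSF1 and 2.82 in HSF6. With the cell line as a block, 2 receptors were called, NR3C1 (adjusted p = 0.0395) and THRA (0.0182), in a fit that called 3.80% of all genes. H1 NSC is also the array with the highest mesenchyme sum (165854) and the lowest neural stem cell sum (4886) given above, and their part in these values was not tested.

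The proteins that work with nuclear receptors were counted in lists chosen by function. Coactivators, which bind the liganded receptor and modify chromatin, differed in both directions. Of 28 tested, 6 were higher (21.4%) and 5 lower (17.9%) in NSC, against 11.4% and 12.4% of all tested genes, with a median difference of 0.03. With the cell line as a block the counts were 6 and 3, since PPRC1 (adjusted p = 0.0637) and PRMT1 (0.0633) were lost. NCOA6 gave 1363, 1753 and 1786 in NSC and 299, 400.1 and 676 in ESC, a difference of 2.27 (limma adjusted p = 0.0116). NCOA1 (SRC-1), a founding member of the p160 coactivators, rose by 1.94 (adjusted p = 0.00535), and the arginine methyltransferase PRMT2 by 1.47 (0.0122). NSD1, a histone methyltransferase, fell by 1.78 (0.0191), PELP1, a coactivator of the estrogen receptor, by 1.54 (0.0129) and NRBF2 by 1.24 (0.0432). Of 20 tested corepressors, 1 was called, PHB2, which fell by 0.75 (adjusted p = 0.0490, and 0.0697 with the cell line as a block), and the median was 0.31. This is 5% of the list called lower and none higher.

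Chaperones that hold steroid receptors ready for ligand moved in 1 direction only among those called. Of 14 tested, 6 were lower and none higher in NSC, with a median difference of -0.65, against 12.4% called lower and a median of -0.06 over all tested genes. HSPA4, a relative of HSP70, gave 408, 502 and 520.0 in NSC and 1872, 1976 and 1412 in ESC, and fell by 2.17 (SE 0.27, limma adjusted p = 0.00364). FKBP4 (FKBP52), which promotes glucocorticoid and progesterone receptor activity, gave 388, 403 and 469 in NSC and 2034, 1475 and 961 in ESC, and fell by 2.09 (SE 0.34, adjusted p = 0.00822). FKBP5 (FKBP51), which restrains the same receptors and is itself a glucocorticoid target, fell by 1.15 (adjusted p = 0.0495, and 0.0818 with the cell line as a block). These chaperones serve many other proteins too.

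Among enzymes and carriers of receptor ligands, 2 of 14 tested genes were higher and 2 lower in NSC (14.3% each, near the 11.4% and 12.4% of all tested genes), with a median of -0.65. CYP46A1, the enzyme that turns cholesterol into an oxysterol in neurons, gave 529, 281 and 271 in NSC and 131, 137 and 132 in ESC, below the limit on every ESC array, so that NSC exceeded ESC by at least 2.35-fold on the deposited signals and 6.34-fold on the corrected scale (adjusted p = 0.00413). FABP7, the fatty acid carrier of radial glia, gave 243, 1387 and 1186 in NSC and 183, 150 and 165 in ESC (difference 3.41, adjusted p = 0.0267). FABP5, which carries fatty acids to PPARD, gave 2022, 955 and 1315 in NSC and 7992, 3270 and 2874 in ESC (difference -1.72, adjusted p = 0.0419). CYP27B1, which makes active vitamin D, was lower in NSC by at least 1.20-fold on the deposited signals and 1.74-fold on the corrected scale (adjusted p = 0.0366), and its call was lost with an offset of 50 (0.0707) and without background correction (0.0914).

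**Figure D5:**
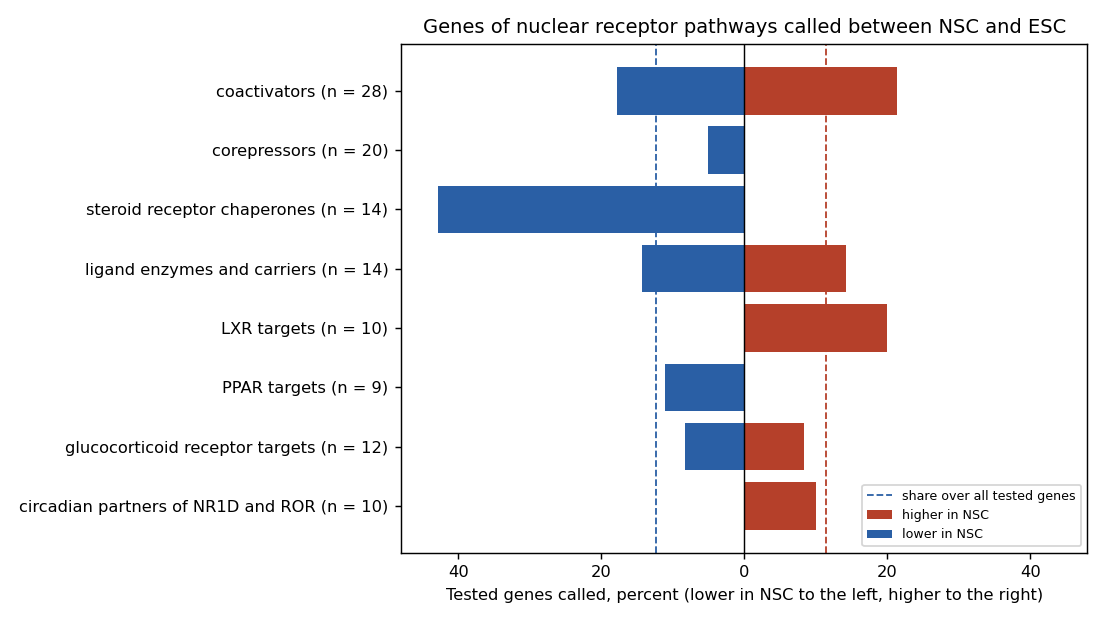
Percent of the tested genes of each pathway list called higher in NSC (red, right) and lower in NSC (blue, left), with n tested genes a list. Dashed lines give the shares over all tested genes, 11.4% higher and 12.4% lower. The steroid receptor chaperones reach furthest to the left, with 6 of 14.

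Known target genes and partners of the receptors were counted against the same shares of all tested genes, 11.4% higher and 12.4% lower. Of 10 tested LXR targets, 2 were higher (20%) and none lower in NSC, SMPDL3A (difference 1.52, adjusted p = 0.00921) and the cholesterol exporter ABCA1, which gave 3157, 2350 and 1577 in NSC and 836, 1406 and 566 in ESC (difference 1.52, adjusted p = 0.0486). With the cell line as a block, APOE, a lipid carrier, was called lower as well (difference -2.85, adjusted p = 0.0421). Of 9 PPAR targets, 1 was lower (11.1%), CPT1A, the gate of fatty acid oxidation (difference -1.69, adjusted p = 0.0225). Of 12 glucocorticoid receptor targets, ZBTB16 was higher, with 205, 382 and 259 in NSC and 141, 143 and 133 in ESC (adjusted p = 0.00920), by at least 1.87-fold on the deposited signals and 4.38-fold on the corrected scale, and FKBP5 was lower (8.33% each). The block fit called the metallothionein MT2A lower (difference -1.18, adjusted p = 0.0354) and lost FKBP5. Of 10 circadian partners of the NR1D and ROR receptors, 1 was higher (10%), PER2, with 372, 517 and 432 in NSC and 301, 285 and 270.0 in ESC (difference 0.90, adjusted p = 0.0468, and 0.0657 with the cell line as a block), and the block fit called BHLHE40 higher (difference 1.35, adjusted p = 0.0266).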

How the data were processed

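mRNA of 3 NSC and 3 ESC cultures was measured on 6 arrays. The deposited values are intensity signals for 48803 probes, which the authors summarised in BeadStudio (version not given in the sources used here). They are quantile normalized, with sorted signals that differed by at most 0.407 between arrays, and hold no background subtraction. A table of unnormalized values, with 24 columns that match no sample label, was not used, so the planned background correction from it was replaced. The background mean (127) was placed at the most frequent signal below 300.0, its SD (11.2) was taken from the lower side of that peak, and normexp with an offset of 16 was followed by log2. Arrays carry no read depth: the number of arrays and signal over background limit the precision.

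R 4.3.3, limma 3.58.1 and the data.table package (version 1.17.8) were used. The main comparison was lmFit and eBayes without covariates, with Benjamini-Hochberg adjustment over all 17303 tested probes. Called means an adjusted p under 0.05 and at least 1.5-fold. A bound on a fold sets the dim stage at the limit, on the corrected scale or on the deposited signals, and depends on that choice. Symbols came from the platform annotation: 27578 probes had 1, 13 had several and 21212 had none. The procedure was tested on simulated data.

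NSC and ESC share the cell line, so the line pairs the arrays. Deviations from the stage means had a correlation of 0.17 between the H1 arrays, 0.23 between those of HSF1 and 0.10 between those of HSF6. Each culture is single, and p-values measure the spread between lines. Members and lists were chosen with earlier results of these data known. Named are all members, and of each list up to 3 called genes a direction with the largest change. Alternatives were the offset, no background correction, no or a stricter detection filter, repeated normalization, the cell line as a block, the methods' t-test, the mean over probes, and leaving out arrays or lines.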

Additional observations from a re-analysis of the deposited data

Results flagged for a closer look

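Outside the stage comparison, 5 genes had a probe whose highest NSC signal was more than 2 times its highest ESC signal. This signal was 475 for NR2E1 in HSF1 NSC (highest ESC array 136), 496 for NR3C2 in H1 NSC (204), 437 for RXRG in H1 NSC (134), 492 for ESRRG in HSF6 NSC (205) and 474 for PPARG in H1 NSC (135). Each rests on 1 or 2 arrays.

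In 2 genes outside the stage comparison, among probes above the limit on at least 1 array of each line, the NSC minus ESC difference of H1 was opposite in sign to that of both HSF lines. For ESRRG it was -1.73 in H1, against 2.72 in HSF1 and 2.03 in HSF6. For NR1D1 it was -0.68 in H1, against 0.75 in HSF1 and 0.53 in HSF6, from signals near the background limit. In the limma interaction fit without a detection filter, H1 minus the HSF lines was -4.10 for ESRRG (adjusted p = 0.222) and -1.32 for NR1D1 (0.415), and neither was called. RORB also had opposite signs, with -1.04 in H1, against 0.82 in HSF1 and 0.58 in HSF6, but both of its HSF6 arrays were below the limit (-1.74 in that fit, adjusted p = 0.683).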

How the results depend on the processing

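The 6 called receptors kept their direction under every setting in which they were tested. Over 299 values of tested receptors under the alternatives, 249 kept direction and side of the threshold, 33 lost a call, 6 gained one and 11 changed sign, none of these called. Over the fits without 1 array, NR2C2 (-0.45 as reported) ranged from -0.99 to 0.082, NR2E3 (0.18) from -0.080 to 0.48 and PPARD (0.10) from -0.17 to 0.25, each at its other sign without H1 ESC, and PPARD also without H1 NSC (-0.069). NR3C2 (0.62) ranged from -0.097, without H1 NSC, to 1.06, and HNF4G (-0.14) from -0.35 to 0.16, without HSF1 NSC. Without both H1 arrays, NR2C2 was at 0.20, NR2E3 at -0.11, PPARD at -0.34 and NR3C2 at -0.021, and without both HSF1 arrays HNF4G was at 0.11. The uncalled interaction value of RORA (0.30) ranged from -0.32, without HSF1 ESC, to 0.92. The number called higher in NSC was 4 as reported and 2 without background correction, without a detection filter and in the methods' t-test (NR2F1 with RXRB in the first, NR2F1 with PPARA in the other 2). The number lower was 2 as reported and 1 when a probe had to pass the limit on all 6 arrays, which leaves NR5A2 and NR2F1 untested by construction. Leaving out single arrays gave 1 to 4 higher and 1 to 3 lower. Without both arrays of a line the counts higher and lower were 2 and 3 for H1, 1 and 1 for HSF1, and 1 and 0 for HSF6, where NR5A2 had an adjusted p of 0.0651. The calls over all 10974 tested genes moved as well, from 1255 higher and 1366 lower as reported. They were 1401 and 1434 without H1, 161 and 138 without HSF1, 251 and 211 without HSF6, and 414 and 596 in the methods' t-test.

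With the cell line as a block (the paired fit), 4 were higher and 2 lower, RXRA was lost and RORA gained, and the interaction with H1 had 2 calls (3.80% of all genes). Without a detection filter it also had 2 (0.311% of all genes), RXRG and PPARG, each above the limit on 1 of 6 arrays, against 0 as reported. Of the genes on the pathway lists, 12 were higher and 15 lower as reported. Without a detection filter and with all 6 arrays above the limit, 8 were lower, and in the methods' t-test 5 were higher and 7 lower. The calls over all genes fell as well. Lower were 1366 of 10974 as reported, 958 of 18665 without the filter and 982 of 8889 with all 6 arrays above the limit. The methods' t-test called 414 higher and 596 lower of 10974, against 1255 and 1366 as reported. The causes of these shifts were not tested. With 3 arrays a stage and many receptors near background, a call that is absent says little about a small difference.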
